A study of Drosophila melanogaster with 9 samples.

Results

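S2 cells, a line of cultured *Drosophila* cells, were compared after 1 h with one of 2 insulin-like peptides, DILP5 or DILP2, each at 100 nM. The comparison took every DILP5 and every DILP2 library of the series, which was 6 of 9 RNA-Seq libraries, 3 per peptide with the letters A, B and C, and left out the 3 vehicle libraries. All cells had first been without serum for 16 h in medium with BSA and HEPES. The DILP5 was recombinant and the DILP2 was synthetic, so the peptide and the way it was made cannot be told apart here. The labels name no separate cultures, and p-values thus measure the spread between these libraries, which may be technical.

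Insulin-like peptides bind the insulin receptor InR, which signals through chico, phosphoinositide 3-kinase and Akt to the TOR kinase, a driver of translation and growth, and to FOXO, a transcription factor that Akt keeps out of the nucleus. InR also acts through Ras and ERK. In flies, DILP2 and DILP5 are both made by the same neurosecretory cells of the brain, and they share this receptor. The comparison asks for which transcripts the 2 peptides differed, and for the others how large a difference the libraries still allowed.

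The counts on genes totalled from 36491495 to 38557706 in the DILP5 libraries and from 30069999 to 36394904 in the DILP2 libraries, so each DILP5 library was deeper than each DILP2 library. Values below are counts scaled to library size after TMM normalization (CPM), and fold changes are DILP5 over DILP2 on the log2 scale. Of 15 markers of hemocytes and S2 cells, 12 passed the filter on low counts, with summed levels of 5720 to 6601 CPM in DILP5 libraries and 5907 to 6508 CPM in DILP2 libraries. The other 3, *He*, *NimC1* and *lz*, had at most 10 counts in any of the 6 libraries. Of 10 muscle markers 7 passed, with sums of 152 to 161 CPM in DILP5 libraries and 152 to 169 CPM in DILP2 libraries, most of it from *Act57B*, *Mef2* and *sls*. Of 8 markers of neurons and glia 4 passed, with sums of 285.5 to 304 CPM in DILP5 libraries and 278 to 296 CPM in DILP2 libraries, nearly all from *brp*, *nrv2* and *elav*. Of 10 germ line and ovary markers 6 passed, with sums of 24.9 to 26.4 CPM in DILP5 libraries and 25.3 to 28.2 CPM in DILP2 libraries. All 4 lists overlapped between the peptides, and their part in the results was not tested.

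In the fit of the 2 peptides without the replicate letter, no transcript passed the threshold. Among 8859 genes tested with edgeR's quasi-likelihood test and Benjamini-Hochberg adjustment, 0 (0%) were called at 0.05, with adjusted p values of 0.9999 or more. An unadjusted p under 0.05 was reached by 147 genes (1.66%), of which 68 were higher and 79 lower with DILP5. This is fewer than that threshold gives on average when no gene differs, so the test may be conservative here. The 0 calls and the high adjusted p values therefore do not show equal levels. With the replicate letter in the fit as a block, 346 of the 8859 genes reached an unadjusted p under 0.05. That is also fewer than the threshold gives on average when no gene differs. DESeq2, limma with voom weights, and the likelihood ratio and exact tests of edgeR on the same design also called 0 genes. The median absolute log2 fold change was 0.046, and the coefficient of variation between libraries of a group, estimated across genes, was 6.71%.

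For most expressed genes the interval left room for only a small difference. The bound of a gene is the end of its 95% interval that lies farther from equality, written as a fold in either direction. The median bound was 1.16-fold, and the 25th and 75th percentiles were 1.11-fold and 1.33-fold. The whole interval lay between a fall of 20% and the matching rise of 25%, called here the 25% limit, for 6064 genes (68.5%), within 1.5-fold for 7356 (83.0%) and within 2-fold for 8321 (93.9%). These are intervals of single genes, with no correction for their number. A count that needs no model was near these: the span of the 9 differences between a DILP5 and a DILP2 library, which is the 90% interval of an exact rank-sum test of 3 against 3, lay within the 25% limit for 5859 genes (66.1%).

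The bound depended on the level of the transcript. Of 2180 genes with a mean of at least 100 CPM, 2131 had an interval within the 25% limit. The median bound was 1.12-fold for the 145 genes at 1000 CPM or more, 1.11-fold for the 2035 genes from 100 to 1000 CPM and 1.14-fold for the 3970 genes from 10 to 100 CPM. It was 1.38-fold for the 1687 genes from 1 to 10 CPM and 1.99-fold for the 1022 genes under 1 CPM, of which 0 had an interval within the 25% limit. Of the 538 genes whose interval reached beyond 2-fold, 504 were under 1 CPM and 0 had 10 CPM or more. At 10 CPM or more, 0 of 6150 genes had a fitted difference of 1.5-fold or more, and 15 had one at or beyond the 25% limit, 1 higher and 14 lower with DILP5.

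**Figure D1:**
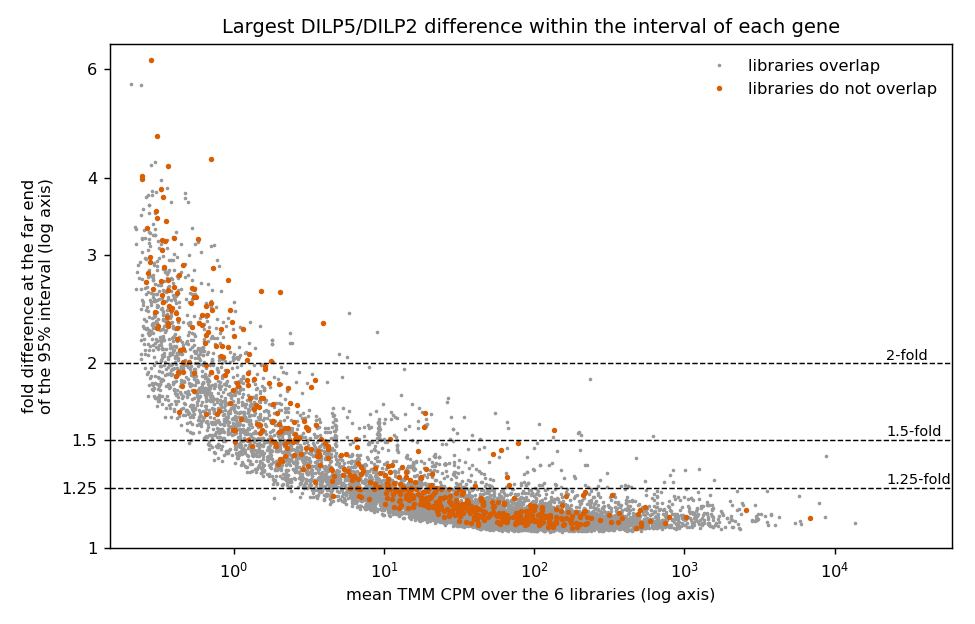
Fold difference at the far end of the 95% interval (log axis) against mean TMM CPM over the 6 libraries (log axis), 1 point per gene, with genes whose DILP5 and DILP2 libraries do not overlap in orange. Bounds narrow with the level, from a median of 1.99-fold under 1 CPM to 1.11-fold between 100 and 1000 CPM, with 1.12-fold at 1000 CPM or more, and dashed lines mark, from the bottom, the 25% limit, 1.5-fold and 2-fold.

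The 4 narrowest bounds at 100 CPM or more belonged to *Drp1*, which acts in mitochondrial fission, *CG4729*, and *bbx* and *waw*, which overlap on the X chromosome and whose counts cannot be told apart. *Drp1* had 153, 151 and 154 CPM in DILP5 libraries A, B and C, against 151, 153 and 155 CPM in DILP2 libraries A, B and C, and its interval ran from 0.940-fold to 1.06-fold. The widest bounds at that level were those of the mucin-like *Muc14A* (1.88-fold), *mt:CoII* (1.59-fold), *CG6220* (1.56-fold), the antimicrobial peptide gene *Dro* (1.54-fold) and *mt:ND4* (1.54-fold). *Muc14A* had 210, 238 and 146 CPM in DILP5 libraries, against 358, 227 and 229 CPM in DILP2 libraries. The groups overlapped, and the wide interval went with a high DILP2 A and a low DILP5 C library.

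Genes of insulin and TOR signalling had similar levels under both peptides. Of the 29 listed, 27 passed the filter, and the insulin-like peptide gene *Ilp8* and the binding protein gene *Sdr* had at most 9 counts in any of the 6 libraries. None of the 27 had an adjusted p or an unadjusted p under 0.05, their median log2 fold change was 0.0025, beside 0.0008 over all genes tested, and 23 had an interval within the 25% limit. Only *Spargel* (*srl*), a homolog of the mammalian PGC-1 coactivators, had libraries that did not overlap, so 1 of 27 was higher and 0 lower, against 3.03% and 3.0% of all genes tested.

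The receptor gene *InR* had 175, 188 and 195 CPM with DILP5, against 201, 197 and 186 CPM with DILP2. The groups overlapped, and the interval ran from 0.880-fold to 1.04-fold. For *chico*, the receptor substrate, it ran from 0.922-fold to 1.14-fold, and for the adaptor gene *Lnk* from 0.922-fold to 1.07-fold. *Pi3K92E* and *Pi3K21B*, the catalytic and regulatory subunits of phosphoinositide 3-kinase, had intervals from 0.909-fold to 1.04-fold and from 0.940-fold to 1.07-fold. *Akt1* had 149, 144 and 150 CPM in DILP5 libraries, against 154, 147 and 153 CPM in DILP2 libraries. The groups overlapped, with an interval from 0.914-fold to 1.04-fold.

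The kinase gene *Tor* and its partner *raptor* had intervals from 0.873-fold to 1.06-fold and from 0.892-fold to 1.06-fold. *Tsc1* and *gig*, whose products restrain TOR, and *Rheb*, its activator, stayed within 1.14-fold at the far end of their intervals. *S6k*, the kinase that TOR activates, had 636, 591 and 633 CPM with DILP5, against 583, 595 and 631 CPM with DILP2. The 2 groups overlapped there as well, with an interval from 0.949-fold to 1.11-fold.

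*foxo*, the FOXO gene, had an interval from 0.953-fold to 1.13-fold. *chrb* and *scyl*, both inhibitors of TOR of the REDD family, had intervals from 0.948-fold to 1.09-fold and from 0.872-fold to 1.03-fold. *Thor*, the translation repressor 4E-BP, had 70.3, 66.5 and 39.7 CPM in DILP5 libraries, against 64.5, 63.0 and 44.9 CPM in DILP2 libraries. *ImpL2*, a secreted protein that binds insulin-like peptides, had 1878, 1667 and 1295 CPM in DILP5 libraries, against 1685, 1556 and 1342 CPM in DILP2 libraries. In both genes the C library of each peptide was the lowest, and the C libraries differed from A and B by more than the peptides did. Their intervals were accordingly wide, from 0.747-fold to 1.41-fold for *Thor* and from 0.865-fold to 1.29-fold for *ImpL2*.

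**Figure D2:**
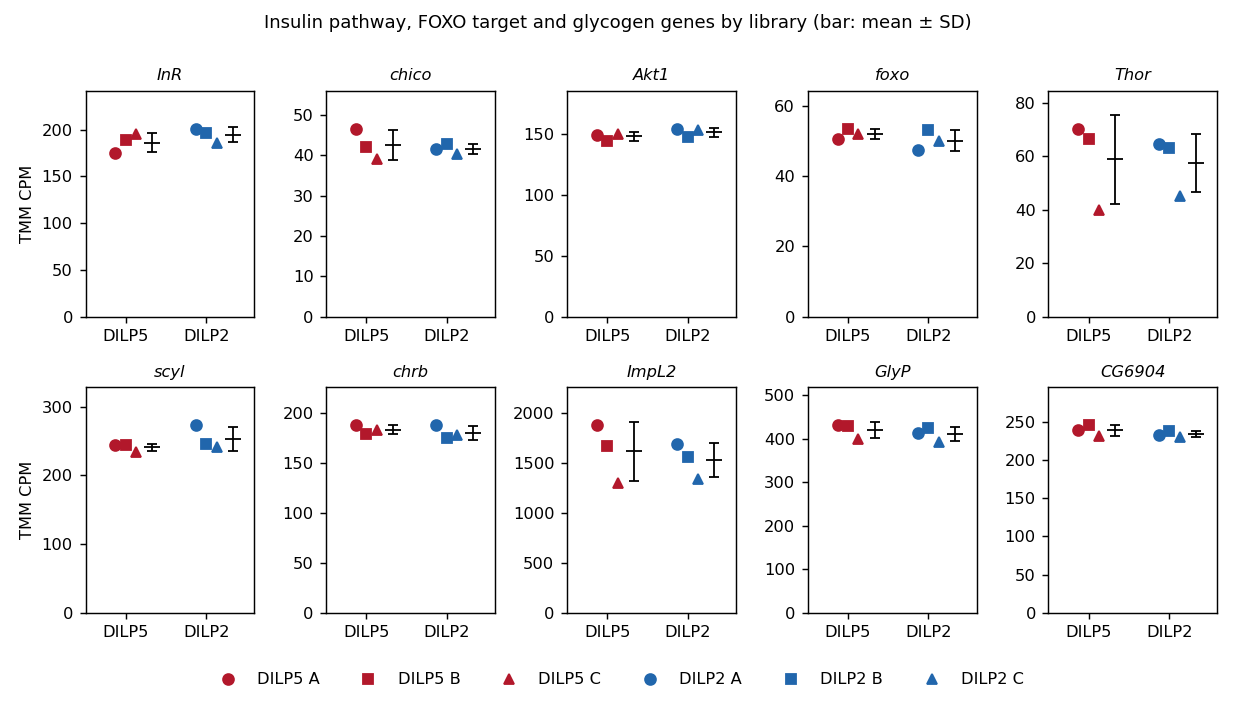
TMM CPM in each library for 10 genes of insulin signalling, FOXO targets and glycogen metabolism, with DILP5 on the left (red) and DILP2 on the right (blue), letters A, B and C as circle, square and triangle, and bars for mean ± SD (n = 3). The groups overlap in all 10 panels, and *Thor* and *ImpL2* are lowest in both C libraries.

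*Spargel* had 224, 218 and 210 CPM with DILP5, against 204, 208 and 200 CPM with DILP2. Every DILP5 library was above every DILP2 library, but the gap was small, namely 0.09 ± 0.04 on the log2 scale (standard error), with an interval from 0.995-fold to 1.14-fold. *Ilp6*, an insulin-like peptide gene, had 367, 328 and 308 CPM with DILP5, against 344, 336 and 334 CPM with DILP2. Its groups overlapped, and its interval ran from 0.896-fold to 1.09-fold.

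Of 16 listed genes of glycogen and carbohydrate storage, 15 passed the filter. None of the 15 was called, 0 had an unadjusted p under 0.05, and the median log2 fold change was -0.0098. *GlyP*, the phosphorylase that breaks glycogen down, had 431, 428 and 400 CPM in DILP5 libraries, against 413, 425 and 392 CPM in DILP2 libraries, and its interval ran from 0.945-fold to 1.11-fold. Glycogen synthase (*CG6904*) had 239, 246 and 232 CPM in DILP5 libraries, against 232, 238 and 231 CPM in DILP2 libraries, with an interval from 0.957-fold to 1.09-fold. For both enzymes the libraries overlapped.

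The debranching enzyme gene *CG9485* and the branching enzyme gene *CG33138* had intervals from 0.961-fold to 1.15-fold and from 0.905-fold to 1.11-fold. *Glycogenin*, which primes glycogen synthesis, was the 1 gene of the list that did not overlap, so 0 of 15 were wholly higher and 1 wholly lower, against 3.03% and 3.0% of all genes tested. It had 25.1, 24.1 and 24.6 CPM with DILP5, against 25.3, 25.7 and 26.5 CPM with DILP2, a log2 fold change of -0.07 ± 0.06 (standard error). *Hex-C*, a hexokinase gene, is reported in the study as regulated by DILP2 and not by DILP5, against unstimulated cells. The study also reports quantitative RT-PCR of *Hex-C* in separate biological samples. Here *Hex-C* had 1.78, 1.23 and 1.55 CPM with DILP5, against 1.37, 0.957 and 1.252 CPM with DILP2. At this low level the interval was wide, from 0.911-fold to 1.76-fold, and only *Tps1*, *Hex-C* and *tobi*, all under 2 CPM in every one of the 6 libraries, had bounds beyond 1.5-fold in this list.

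Of 25 genes of the EGFR and ERK pathway, 24 passed the filter, while *Egfr* itself had at most 11 counts in any of the 6 libraries. None of the 24 was called or had an unadjusted p under 0.05, the median log2 fold change was -0.0051, and 21 had an interval within the 25% limit. The ligand gene *spi* had an interval from 0.924-fold to 1.11-fold, and *rho*, a protease that activates that ligand, from 0.789-fold to 1.07-fold. The ETS factor gene *pnt*, the inhibitor gene *sty* and the Fos gene *kay* were bounded at 1.08-fold, 1.13-fold and 1.12-fold. *kek1*, an EGFR inhibitor, was the 1 member without overlap, which made 0 of 24 higher and 1 lower (against 3.03% and 3.0% of all genes tested), with 269, 264 and 270 CPM in DILP5 libraries, against 282, 282 and 275 CPM in DILP2 libraries. Its log2 fold change was -0.06 ± 0.04 (standard error). *rl*, the ERK gene, had 21.2, 21.1 and 16.9 CPM with DILP5, against 26.6, 22.5 and 20.98 CPM with DILP2. The groups overlapped by less than 1 CPM, and the log2 fold change of -0.24 ± 0.11 (standard error) was -0.14 without DILP2 A and -0.15 without DILP5 C.

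Across 18 classes of genes, the class medians lay between -0.027 and 0.022 on the log2 scale. The classes held 548 different genes past the filter, of which 0 were called. Among these members 3.65% lay wholly higher and 2.01% wholly lower with DILP5, against 3.03% and 3.0% of all genes tested. An interval within the 25% limit was found for 474 of the 548 (86.5%), beside 68.5% of all genes, many of which were at lower levels. The summed CPM of a class gives a second bound, from the span of the 9 library pairs. That bound was between 1.02-fold and 1.21-fold, with a median of 1.065-fold over the classes.

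The 88 cytosolic ribosomal protein genes had a median log2 fold change of 0.0036 and summed levels of 119600, 112700 and 109800 CPM in DILP5 libraries, against 116700, 111400 and 112100 CPM in DILP2 libraries. The groups overlapped, and the span of the summed level ran from 0.941-fold to 1.07-fold. The 75 mitochondrial ribosomal protein genes had a median of 0.0058 and a span from 0.958-fold to 1.08-fold, and 3 of them were wholly higher and 3 wholly lower, against 3.03% and 3.0% of all genes tested. The lowest of these was *mRpL33*, with 2.13, 1.80 and 1.47 CPM in DILP5 libraries, against 2.28, 2.18 and 2.14 CPM in DILP2 libraries. Its log2 fold change of -0.29 had a standard error of 0.17 and was -0.17 without DILP5 C. The 33 genes of ribosome biogenesis in the nucleolus spanned 0.978-fold to 1.01-fold, and the 32 proteasome genes 0.992-fold to 1.02-fold.

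Within ribosome biogenesis, *Fib*, the fibrillarin gene whose product methylates ribosomal RNA, had 333, 330 and 372 CPM with DILP5, against 294, 311 and 329 CPM with DILP2. The groups lay apart by less than 2 CPM, and the log2 fold change of 0.15 ± 0.06 (standard error) was 0.09 without DILP5 C. The *Drosophila* Myc gene *dm* was bounded at 1.27-fold. The 44 translation factors were the 1 class whose summed level did not overlap. It was 26480, 26710 and 26520 CPM in DILP5 libraries, against 27280, 26930 and 26820 CPM in DILP2 libraries. All DILP5 libraries were lower, but the span ran only from 0.971-fold to 0.996-fold. The class median of the log2 fold changes, another measure, was -0.0078. It was 0.025 without DILP5 C and DILP2 A together, a setting added after the data were seen. The sums given here for the remaining libraries still do not overlap.

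Antimicrobial peptides and components of the Imd and Toll pathways, 34 genes of innate immunity, summed to 4003, 3878 and 4321 CPM in DILP5 libraries, against 4118, 3677 and 4708 CPM in DILP2 libraries. The C library of each peptide was the highest, and the span, from 0.824-fold to 1.17-fold, was the widest of the classes. *Dro*, an antimicrobial peptide gene, had 206, 150 and 226 CPM with DILP5, against 174, 137 and 296 CPM with DILP2, so the letters differed more than the peptides. Heat shock proteins and co-chaperones, 27 genes, had median levels 0.18 below the mean of the 6 libraries in DILP5 C and 0.081 below it in DILP2 C, and 0.080 above it in DILP2 A. Their summed level, set by the most abundant chaperones, spanned only 0.969-fold to 1.03-fold. The part of these library differences in the results of single genes was not tested.

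**Figure D3:**
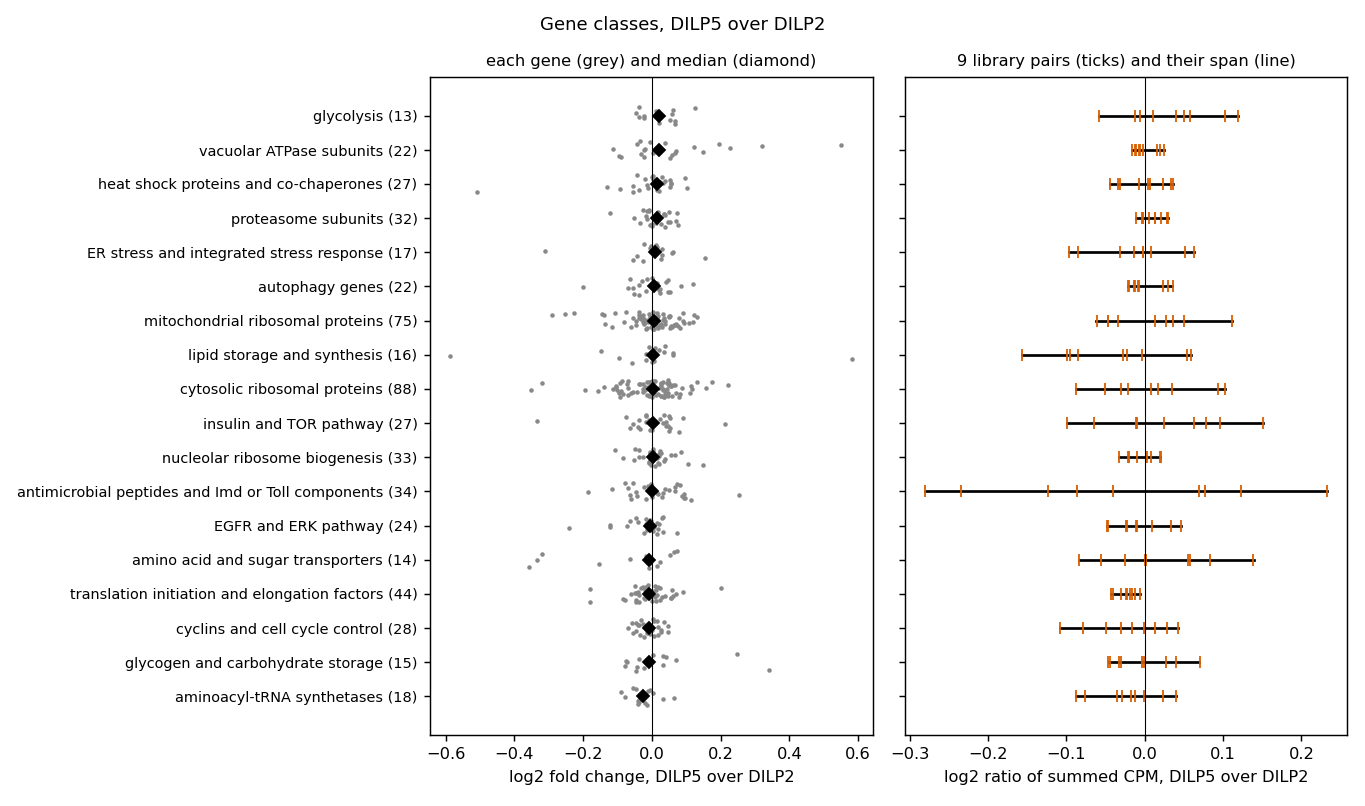
Log2 fold change of each gene and the class median (left) and the log2 ratio of the summed CPM in the 9 pairs of a DILP5 and a DILP2 library (right), for 18 classes with the number of genes in brackets. Medians lie between -0.027 and 0.022, and only the span of the translation factors lies wholly on one side of 0.

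**Figure D4:**
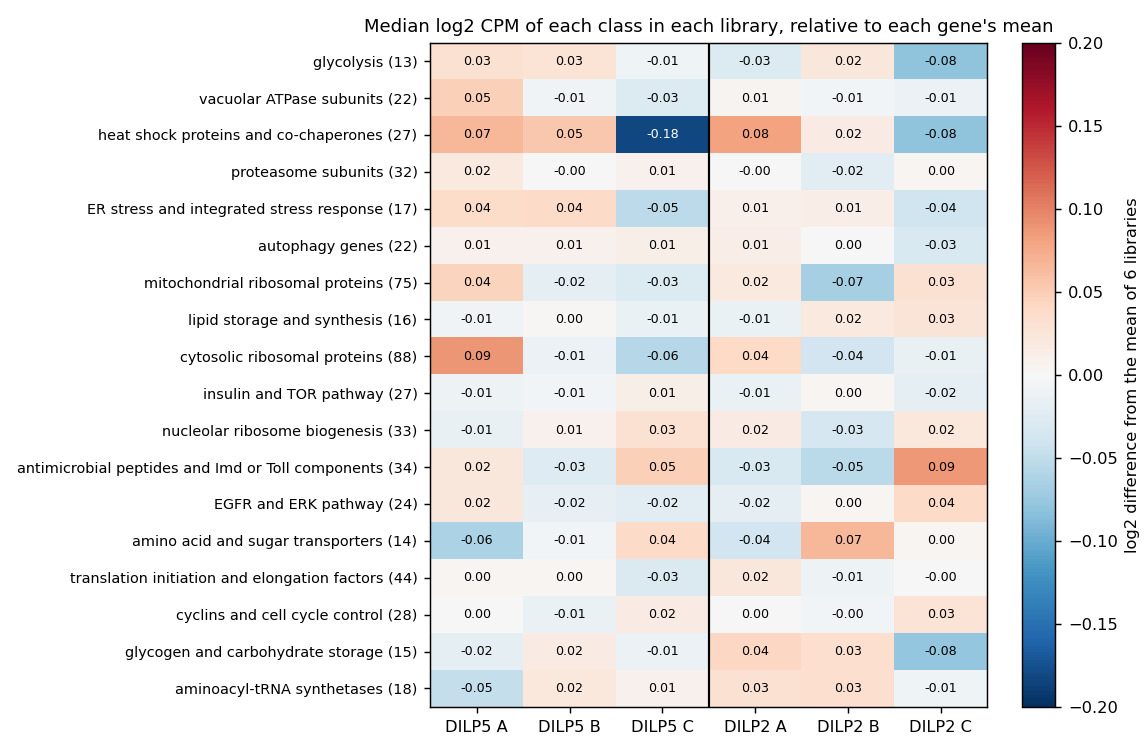
Median log2 CPM of each class in each library, relative to each gene's mean over the 6 libraries, with the 3 DILP5 libraries left of the line and the 3 DILP2 libraries right of it. Heat shock genes stand 0.18 below the mean in DILP5 C, while the insulin and TOR list stays within 0.02 of it in every library shown.

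The letter held a larger share of the variance than the ligand, also per degree of freedom. Per degree of freedom, the ligand held about as much as the remainder. Of the variance of log2 CPM over all genes tested, the ligand held 16.7% with 1 degree of freedom, the letter 51.2% with 2, and the remainder 32.1% with 2. For genes of at least 10 CPM the ligand held 12.1%, the letter 64.6% and the remainder 23.3%. These are descriptions, and the labels do not say what a letter stands for.

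Genes whose replicates did not overlap numbered 268 higher (3.03%) and 266 lower (3.0%) with DILP5, together 534 (6.03%). For 3 against 3 exchangeable libraries, separation in either direction has a probability of 0.1, which is more than this share. The count by itself is thus no sign of a difference between the peptides. Their median absolute log2 fold change was 0.13, and 119 of them also had an unadjusted p under 0.05. The share without overlap was 9.30% under 1 CPM and 3.49% between 100 and 1000 CPM. Since 0 genes passed the adjusted threshold, the genes described next are the extremes of the measurements, by rules of rank.

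Of the 10 genes with the smallest unadjusted p, 4 were at or under 1 CPM on average. *CG5367*, which encodes a predicted cysteine protease, had 0.137, 0.154 and 0.0788 CPM in DILP5 libraries, against 0.468, 0.429 and 0.417 CPM in DILP2 libraries. That was 5, 6 and 3 counts against 15, 13 and 15 counts, with an unadjusted p = 0.00084 and an adjusted p = 0.9999 by edgeR's quasi-likelihood test. *Sgs1*, a salivary glue protein gene, was also lower, with 7, 19 and 20 counts with DILP5, against 33, 38 and 27 counts with DILP2. *CG7589* and *CG9733* were higher with DILP5, at 0.598 ± 0.063 against 0.314 ± 0.043 CPM and at 0.536 ± 0.070 against 0.265 ± 0.042 CPM in DILP2 libraries (SD, n = 3 each). *CG7860* had 3.01, 3.22 and 2.99 CPM with DILP5, against 2.00, 2.44 and 2.23 CPM with DILP2. Its log2 fold change was 0.47 ± 0.13 (standard error), and it lay between 0.40 and 0.54 when any one library was left out.

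*CG6220*, *CG33774* and *mRpS5* are named in the study as differing significantly between these peptides. That call came from these same libraries, so the differences of these genes here are no independent evidence. The study also reports quantitative RT-PCR of *CG33774* in separate biological samples, as a gene regulated by DILP2 and not by DILP5. In the fit without the replicate letter, none of these genes was called here. Their adjusted p values by edgeR's quasi-likelihood test were 0.9999 or more. With the letter as a block, that test still called 0 genes, and its smallest adjusted p was 0.117, for *CG6220*. The block with edgeR's likelihood ratio test, added after the data were seen, called 17 genes. *CG6220*, *CG33774* and *mRpS5* were among them, *CG6220* with an adjusted p of 1.19e-06 by that likelihood ratio test. *CG6220* had 94.7, 134 and 121 CPM in DILP5 libraries, against 145, 154 and 162 CPM in DILP2 libraries. All DILP5 libraries were lower, DILP5 A most, and the interval ran from 0.642-fold to 0.901-fold. It had the largest fitted difference among non-overlapping genes of at least 10 CPM, -0.39 ± 0.11 on the log2 scale (standard error), and -0.26 without DILP5 A. *CG33774* had 3.45, 2.93 and 2.44 CPM in DILP5 libraries, against 6.56, 4.03 and 4.20 CPM in DILP2 libraries. Its groups did not overlap, but the log2 fold change of -0.75 ± 0.21 (standard error) was -0.49 without DILP2 A, and the gene overlaps *l(2)k10201*, so its reads may be shared. The mitochondrial ribosomal protein gene *mRpS5* had 38.4, 32.1 and 27.8 CPM in DILP5 libraries, against 44.5, 39.0 and 33.8 CPM in DILP2 libraries. These overlapped, since DILP5 A was above DILP2 C, while each DILP5 library was below the DILP2 library of its letter, and the log2 fold change of -0.25 was -0.15 without DILP2 A and -0.15 without DILP5 C.

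Of 41 genes that the study names, most for their response to the peptides in these libraries, 5 were wholly higher and 2 wholly lower with DILP5, against 3.03% and 3.0% of all genes tested. The list also holds genes named for other reasons, such as *GlyP* for its phosphorylation. The higher ones were *Sec61beta*, a subunit of the channel into the endoplasmic reticulum, *Spargel*, *CG42708*, *CG10166* and *CG10038*. *Sec61beta* had 253, 212 and 222 CPM with DILP5, against 198, 207 and 212 CPM with DILP2. Its groups lay apart by less than 1 CPM, and its log2 fold change of 0.16 was 0.08 without DILP5 A. *CG42708*, a glutaminase gene, had 205, 210 and 203 CPM with DILP5, against 199, 196 and 190 CPM with DILP2, with an interval from 0.992-fold to 1.13-fold. Most of the list was chosen on these samples, so its count is not independent evidence.

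Among genes of at least 10 CPM, the higher genes without overlap numbered 178 and had log2 fold changes of at most 0.23. The largest was that of *CG10981*, with 12.3, 11.2 and 11.8 CPM in DILP5 libraries, against 9.99, 10.3 and 9.82 CPM in DILP2 libraries. *Vha14-1*, a subunit of the vacuolar proton pump, had 44.7, 40.7 and 43.9 CPM with DILP5, against 39.8, 38.2 and 35.0 CPM with DILP2, and its interval ran from 1.04-fold to 1.26-fold. The summed level of all 22 subunits of the pump spanned 0.989-fold to 1.02-fold. *Pgam5*, a mitochondrial phosphatase gene, had 37.9, 34.2 and 35.2 CPM with DILP5, against 31.6, 31.9 and 31.4 CPM with DILP2. It kept a log2 fold change between 0.14 and 0.21 whichever library was left out.

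The lower genes without overlap numbered 142 at that level and reached larger fitted differences. *Nipped-A*, a subunit of histone acetyltransferase complexes, had 54.2, 56.1 and 49.7 CPM in DILP5 libraries, against 77.4, 57.5 and 62.7 CPM in DILP2 libraries. DILP2 A stood apart from the other 5 libraries, and the log2 fold change of -0.30 ± 0.10 (standard error) was -0.17 without it. *Parp*, the gene of poly(ADP-ribose) polymerase, had 18.1, 18.0 and 12.9 CPM in DILP5 libraries, against 25.7, 19.6 and 18.6 CPM in DILP2 libraries. Here DILP2 A was high and DILP5 C low, and the log2 fold change of -0.38 was -0.22 without DILP2 A, -0.24 without DILP5 C and -0.08 without both. *MED26*, a Mediator subunit, and *plexB*, a semaphorin receptor, had log2 fold changes of -0.35 and -0.26, which were -0.17 and -0.11 without DILP2 A. *CG17514* was at -0.33 with all libraries and -0.18 without DILP2 A. *CG18316*, with 63.1, 62.2 and 63.2 CPM in DILP5 libraries, against 79.4, 70.3 and 67.6 CPM in DILP2 libraries, was among the 10 genes with the smallest p. Its 3 DILP5 libraries lay within 1 CPM of each other, and its log2 fold change was -0.21 with all libraries and -0.14 without DILP2 A.

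**Figure D5:**
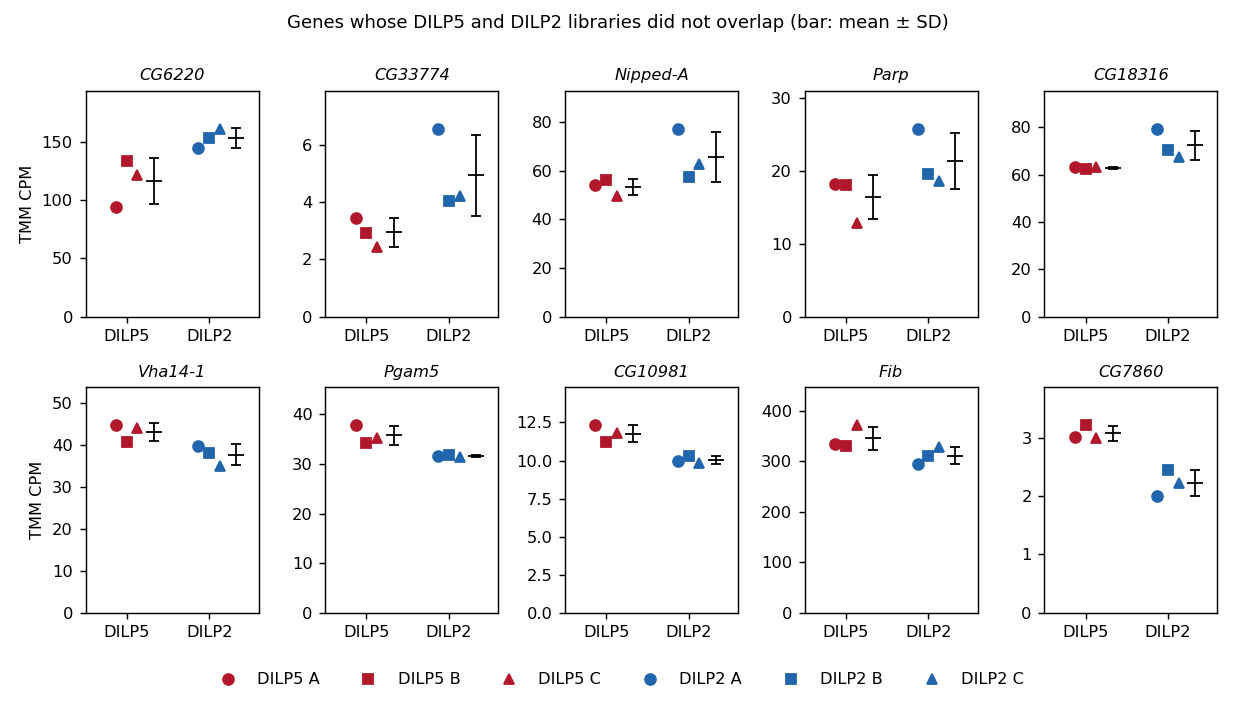
TMM CPM in each library for 10 genes whose DILP5 libraries (left, red) lie wholly above or below their DILP2 libraries (right, blue), with letters as symbols and bars for mean ± SD (n = 3). In *CG33774*, *Nipped-A* and *Parp*, DILP2 A lies above the other libraries. Groups without overlap stay apart when a library is left out, so a kept direction is no added evidence for these genes.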

How the data were processed

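RNA was selected for poly(A) and sequenced as 50 bp single-end reads. The authors mapped the reads to dm3 with Tophat and Bowtie, made gene counts with easyRNASeq, and deposited these raw counts for 13937 genes. Versions and the handling of strand are not given in the sources used here, so overlapping genes and near-identical copies are uncertain. From these counts, the 6 DILP libraries were fitted without a covariate in edgeR 4.0.16 under R 4.3.3, with filterByExpr, TMM, the quasi-likelihood test, Benjamini-Hochberg adjustment over 8859 genes and a threshold of 0.05. Intervals used the standard error, the size of the log2 fold change over the root of F, and 9.26 degrees of freedom. DESeq2 1.42.0 and limma 3.58.1 were alternatives. The fit was also run on counts simulated without an effect of the letter, which cannot show how it handles the letters here. Libraries of a group differed by more than counting noise in every pair. The members and gene lists were chosen with earlier results of these data known, so no p is given for a list. Named genes were those the study names, members of the insulin and TOR, EGFR and ERK, and glycogen lists, the 10 largest non-overlapping differences in each direction at 10 CPM or more, the 10 smallest p, the 5 smallest and 5 largest bounds at 100 CPM or more, and the extremes of each other class. A choice of these is described. Names came from the file and the BDGP6 annotation, in which 13389 identifiers were found. It is another build, so no coordinates are given. Counting error of single libraries is included in the intervals of the fit. The result of 1 gene is not reported here.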

Additional observations from a re-analysis of the deposited data

How the results depend on the processing

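The 0 genes called held under each alternative set at the outset, including an adjusted p under 0.1, all 9 libraries in the fit and each library left out. The number at an unadjusted p under 0.05, 147, was 74 with DESeq2 and 231 with no filter beyond 1 count. It was 77 to 397 with 1 library left out, lowest without DILP2 A and highest without DILP2 C, with 257 without DILP5 C. The labels do not say whether the letters pair the libraries. The same-letter correlations of deviations were 0.16, 0.095 and 0.37 for A, B and C. DILP5 A and C correlated best with the DILP2 library of their own letter. DILP5 B correlated best with DILP2 A, so the letters were not taken as pairs in the main fit. Variation between letters thus stayed in the spread that its intervals measure. The median bound was 1.16-fold in the main fit and 1.13-fold with the replicate block. With the replicate block, 0 genes were called and 346 had an unadjusted p under 0.05. Added after the data were seen, the replicate block with edgeR's likelihood ratio test called 17 genes, *CG6220*, *CG33774*, *mRpS5*, *Parp* and *Nipped-A* among them. In that fit, 424 of 8859 genes had an unadjusted p under 0.05. Without the filter on low counts, that fit called 36 genes, with 732 of 12823 at an unadjusted p under 0.05. The call count of 0 thus depends on the test once letters are a block.

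Genes within the 25% limit numbered from 4984 (99% interval) to 6534 (replicate block), against 6064, and 6255 passed an adjusted equivalence test. With 1 library left out, the numbers without overlap were 515 to 934 higher and 512 to 985 lower, since fewer libraries overlap less often. Without DILP5 C and DILP2 A, added after the data were seen, 419 genes had an unadjusted p under 0.05, and 1458 were higher and 1493 lower without overlap. No filter gave 428 lower. Class medians moved by more than their library spread in these cases. The log2 ratio of summed CPM gave 0.026 for insulin and TOR genes, -0.041 for lipid genes and -0.012 for the genes the study names. No filter gave 0.051 for vacuolar ATPase genes. Without DILP5 C and DILP2 A, medians were -0.067 for transporters, 0.025 for translation factors and -0.0024 for the genes the study names. With 1 library left out, medians reached 0.0034 to 0.0337 for the genes the study names, -0.00396 to 0.0203 for insulin and TOR, -0.0184 to 0.0193 for autophagy and -0.0408 to 0.0761 for immune genes. Of 162 named genes, 95 kept their direction in every alternative fit. Causes were not tested. Genes under 1 CPM had the widest intervals.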

Other observations

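Genes of chromosome 4 and genes nearest the centromeres of arms 2L, 2R and 3L, regions rich in heterochromatin, were highest in DILP2 A and lowest in DILP5 C by their medians, while those of 3R and X were not. The groups were formed after the values were seen, from the order of the tested genes in the BDGP6 annotation, and no test was run on them. Of the 60 tested genes of chromosome 4, 50 had a negative log2 fold change, with a median of -0.11. The 20 tested genes nearest the centromere had a median of -0.26 on arm 2R, -0.17 on 3L and -0.05 on 2L, and of -0.02 on both 3R and X. The next 20 genes of the 5 arms had a median of -0.02. For arm 2R, the median levels relative to each gene's mean over the 6 libraries were -0.02, -0.03 and -0.33 in DILP5 A, B and C, against 0.47, -0.02 and -0.03 in DILP2 A, B and C. Chromosome 4 showed the same shape, with -0.02, -0.01 and -0.17 in DILP5 libraries, against 0.25, 0.01 and -0.07 in DILP2 libraries. On 3L the medians were 0.06, 0.00 and -0.33 in DILP5 libraries, against 0.32, -0.01 and -0.03 in DILP2 libraries. On 3R they were -0.08, 0.01 and 0.02 in DILP5 libraries, against -0.02, 0.01 and 0.01 in DILP2 libraries, and on X 0.02, -0.03 and 0.01 in DILP5 libraries, against -0.03, -0.01 and 0.06 in DILP2 libraries. Without overlap there were 0 higher and 5 lower genes on chromosome 4, or 8.33% lower, beside 3.0% of all genes tested and 8% of the next 20 genes of the arms. *MED26*, *plexB*, *Parp*, *CG17698* and *CG32350*, 5 of the 10 lower genes named by size, belong to chromosome 4 or to the 20 genes nearest a centromere, *Parp* on 3R, as does *rl* on 2R. These regions together held 160 of the 8859 genes tested. Of these, 12 (7.5%) were wholly lower, beside 8% of the next 20 genes of the arms and 3.0% of all genes tested. The regions were formed after these genes were seen, so the 5 of 10 is no independent evidence.

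The 13 transcripts of the mitochondrial genome had a median log2 fold change of -0.14, with levels of 0.22, 0.02 and -0.31 in DILP5 A, B and C relative to the mean of the 6 libraries, against 0.46, 0.00 and -0.21 in DILP2 A, B and C. Replication-dependent histone genes, whose mRNAs mostly lack poly(A) tails and whose copies are near-identical, had a median of 0.03 over 115 genes. Their levels were 0.32, 0.13 and -0.34 in DILP5 A, B and C, against 0.18, 0.04 and -0.24 in DILP2 A, B and C, so both C libraries were low and both A libraries high. Across 5862 genes of at least 10 CPM, log2 fold changes followed exonic length with a Spearman correlation of -0.23, which is a description across genes that share their libraries. Within letters it was -0.18 for A, -0.35 for B and 0.13 for C, so its sign was not shared by the 3 letters.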
